A study of Homo sapiens with 101 samples.

Results

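Hydrogen peroxide (H2O2) and tert-butylhydroquinone (tBHQ) were set directly against each other in HT1080 cells, an established human fibrosarcoma line, with no control in the contrast. The samples were taken by their labels, 5 given 100 µM H2O2 (replicates 1, 2, 3, 5 and 6) and 6 given 200 µM tBHQ (replicates 1 to 6). These are 11 of the 101 arrays of the series, which fall into 17 groups. Transcripts were measured on Affymetrix HT HG-U133+ PM arrays, and all levels below are deposited log2 values. The 2 groups share a normalization with the 6 control samples labelled DMSO_pooled (replicates 1 to 6), which are given beside the contrast as a reference. That this control belongs to both compounds is inferred, and the source of the pool is not given in the labels.

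Both groups are the same line grown in serum, and by the protocol each compound came from a DMSO stock with 0.1% vehicle in the medium. The series text says that every compound had 1 dose, chosen so that total p53 protein rose 1.5-fold, and the exposure time is not given in the sources used here. The doses differ, so every difference is between 100 µM H2O2 and 200 µM tBHQ as given. Replicates are numbered but not described as separate cultures, so p-values reflect only how these samples spread, which may be technical. In bulk RNA, fewer cells expressing a gene and less RNA per cell cannot be told apart.

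H2O2 is a reactive oxygen species that can break and oxidise DNA, and DNA damage stabilises p53, which switches on genes of cell cycle arrest, repair and death. tBHQ is a phenol that is oxidised to a reactive quinone and modifies cysteines of KEAP1, the adaptor that otherwise sends the transcription factor NRF2 to the proteasome. Freed NRF2 pairs with small MAF proteins on antioxidant response elements and drives genes that make glutathione, reduce thioredoxin, supply NADPH and detoxify quinones. The comparison asks how transcripts differ between 2 treatments whose doses were both picked on total p53 protein.

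The cells carried most of the listed markers of their line in both groups. Of 12 mesenchymal markers 10 were tested and 0 were called different between the groups, where 9.72% of all tested genes were. The list mean was 8.81 to 8.93 in H2O2 samples, 8.60 to 8.78 in tBHQ samples and 8.81 to 8.89 in controls. Vimentin (VIM) averaged 13.07 in H2O2 and 13.05 in tBHQ. The members not tested were NT5E (2.81 and 2.62) and THY1 (3.26 and 3.39), which read under 4. None of 10 epithelial or 7 endothelial markers reached the level of 4 that a gene needed to be tested. Single members of the blood (CD3D), liver (AFP) and neural (SNAP25) lists did in some group of the series. AFP was called higher in tBHQ, with means of 3.38 in H2O2, 4.40 in tBHQ and 3.31 in the controls. Since the H2O2 mean lay under 4, the call rests on signal near the floor. The medians of the arrays lay between 3.27 and 3.33. Replicate 1 differed most from the rest of its group in every group, with 351 genes at least 2-fold from the median of the others in H2O2, 334 in tBHQ and 223 in the controls, against at most 118, 51 and 63 for any other replicate. H2O2 replicate 3 stood above the rest of its group in NRF2 target genes, with a list mean of 8.36 against 7.92 to 8.03. DMSO_pooled replicate 2 had the highest p53 target mean of its group, 8.35 against 8.07 to 8.19. Results that rest on such a library are given without it too.

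Of 11489 genes tested, 1117 (9.72%) differed between the treatments, 583 (5.07%) higher in H2O2 and 534 (4.65%) higher in tBHQ. A gene is called here when its limma adjusted p is under 0.05 and its fold is at least 1.5. At least 2-fold differences were called for 219 genes toward H2O2 and 153 toward tBHQ, and those of at least 8-fold for 2 and 6. Every H2O2 sample was above every tBHQ sample in 943 genes (8.21%), and the reverse held in 936 (8.15%). Against the control, tBHQ had 1129 genes called (9.83%) and H2O2 had 108 (0.94%), or 224 when the replicate number entered as a block. Leaving out single samples moved the H2O2 count between 35, without H2O2 replicate 5, and 167, without H2O2 replicate 1. Both of these comparisons use the same DMSO_pooled samples. Results against the control for lists and single genes below are from the fit without the block. The 3 genes furthest toward tBHQ were all NRF2 targets, the aldo-keto reductases AKR1C1 and AKR1C2 and heme oxygenase HMOX1. Among the furthest toward H2O2 were filaggrin (FLG), the keratin-associated protein KRTAP2-3, PLAC8 and the thioredoxin inhibitor TXNIP, and the order of FLG and PLAC8 is open because their tBHQ means lay under 4. The share of each gene list called in each direction is shown in the plot of gene lists. The lists were drawn up with earlier results of these data known, so these shares describe them and test nothing. Lists also share members, so their shares are not separate results. SLC7A11, for example, is on the NRF2, glutathione and ATF4 lists.

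**Figure D1:**
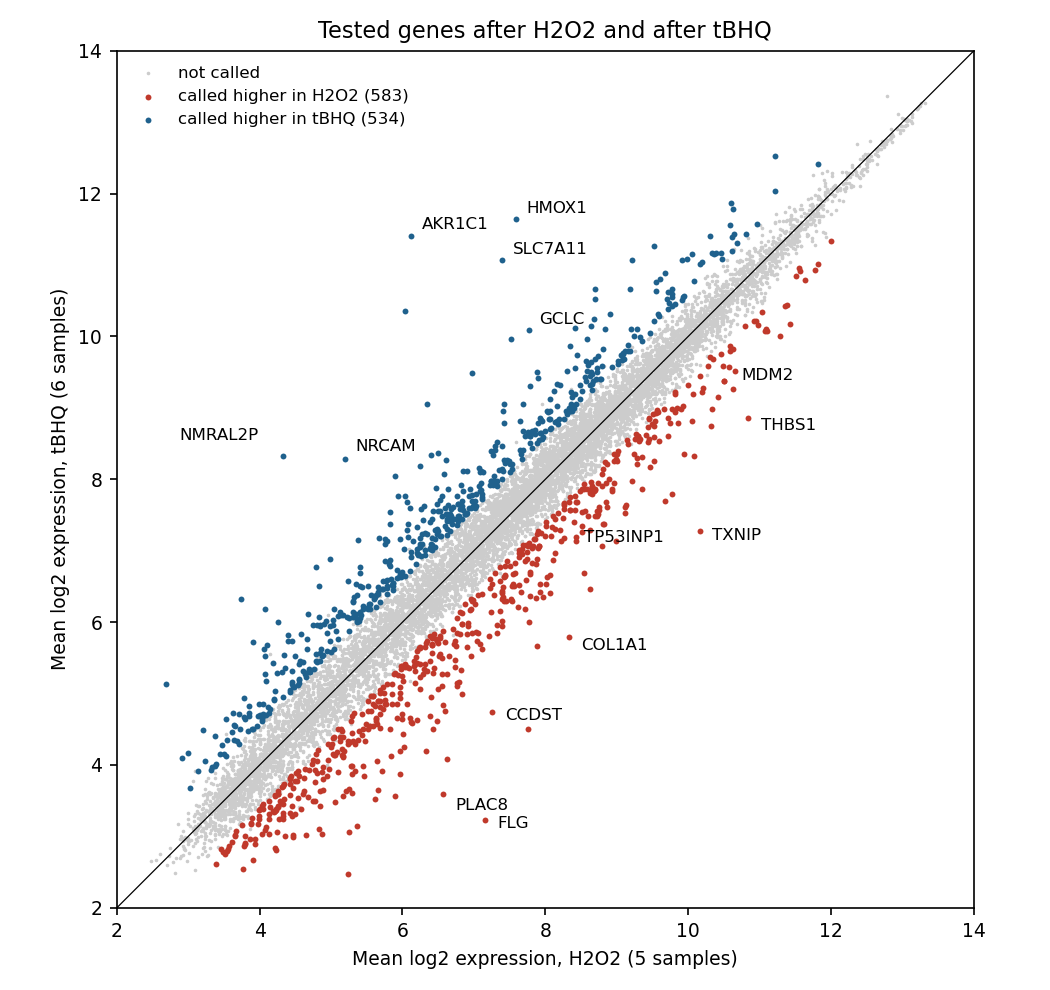
Mean log2 expression of each tested gene after H2O2 (x axis, 5 samples) and after tBHQ (y axis, 6 samples), with the line of equal values. Coloured points are the 583 genes called higher in H2O2 (red) and the 534 called higher in tBHQ (blue), and AKR1C1, HMOX1 and NMRAL2P lie furthest above the line among the labelled genes.

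**Figure D2:**
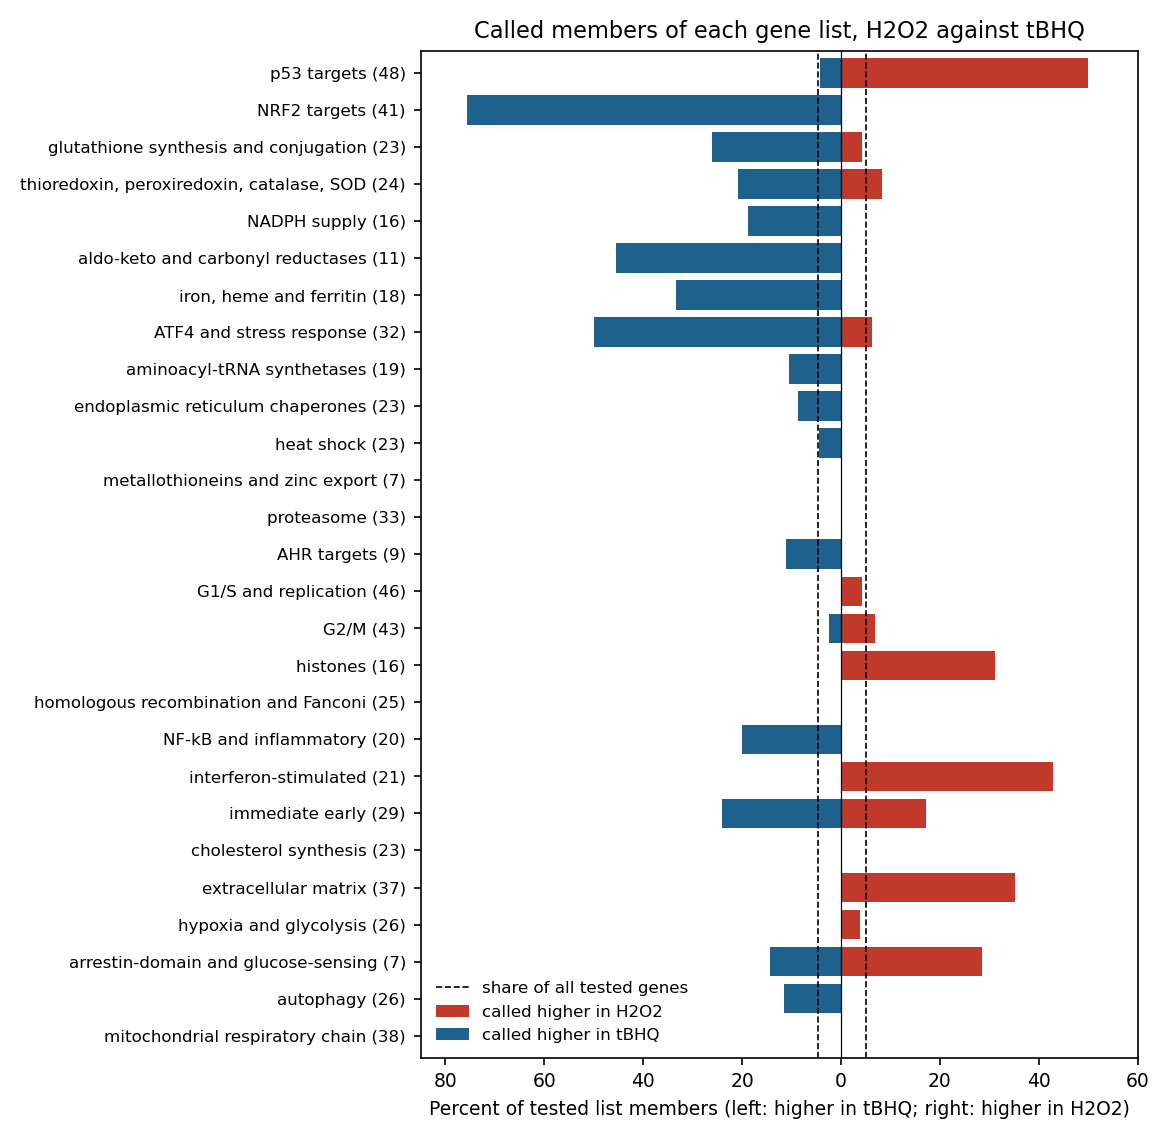
Percent of the tested members of each gene list (number tested in brackets) called higher in tBHQ (blue, to the left) or higher in H2O2 (red, to the right). Dashed lines mark the share over all tested genes, 4.65% and 5.07%. NRF2 targets reach 75.6% toward tBHQ and p53 targets 50.0% toward H2O2. Lists share members and were chosen with earlier results of these data known.

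Most NRF2 target genes were higher in tBHQ than in H2O2. Of 47 listed genes 41 were tested, and 31 of them (75.6%, against 4.65% of all genes) were called higher in tBHQ, 0 higher in H2O2 and 10 in neither direction. In 34 members every tBHQ sample was above every H2O2 sample (8.15% of all genes). The median difference, H2O2 minus tBHQ, was -1.10, against -0.005 over all genes. Against the control 34 members were called higher in tBHQ (5.39% of all genes were) and 0 were called in either direction in H2O2 by limma, with medians of 1.29 and 0.08. Leaving out H2O2 replicate 3, 33 members were called higher in tBHQ than in H2O2, the median was -1.17, and 1 member (SLC7A11) was called lower than the control in H2O2. Without DMSO_pooled replicate 2, 1 member (AKR1B10) was called higher than the control in H2O2.

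Of the 2 regulators measured, KEAP1 was called and NFE2L2 was not. NFE2L2, which encodes NRF2, read 10.30, 10.38, 10.59, 10.44 and 10.44 in the H2O2 samples and ran from 10.29 to 10.68 in tBHQ with a median of 10.55. The groups overlapped, and the difference of -0.09 had a 95% interval of -0.28 to 0.09. KEAP1, the adaptor that holds NRF2 down and is itself an NRF2 target, read 7.78, 7.88, 7.85, 7.67 and 7.71 in H2O2 and 8.40 to 8.63 (median 8.48) in tBHQ. Every tBHQ sample was above every H2O2 sample, by 0.73 ± 0.07 on average (adjusted p = 2.6e-05), and controls ran from 7.50 to 7.85.

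Short stretches of promoter were set beside these genes because NRF2 acts through a known DNA element. The core of the antioxidant response element, TGACNNNGC, was searched on both strands in the 250 bases before the start site (RefSeq, GRCh38.p14). It was found in 5 of the 24 NRF2 targets called higher in tBHQ that have a promoter in the table, which is 20.8%, and in 16.7% of the 30 tested NRF2 targets there. The share was 19.2% of 26 ATF4 list genes, 15.8% of 38 p53 targets, 12.1% of tested genes and 11% of all 27305 promoters. It stood in 13.5% of 436 promoters of genes called higher in tBHQ and 9.76% of 451 called higher in H2O2. A match describes these letters in this window and is no evidence of binding. The 5 matches are printed 5′ to 3′ along the gene's strand, with the match in capitals.
GCLM, chr1:93909441-93909479, minus strand: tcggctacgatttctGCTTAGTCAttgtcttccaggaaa
TXNRD1, chr12:104215665-104215703, plus strand: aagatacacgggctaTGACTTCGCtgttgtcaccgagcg
PGD, chr1:10398848-10398886, plus strand: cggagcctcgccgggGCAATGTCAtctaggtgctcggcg
ME1, chr6:83431165-83431203, minus strand: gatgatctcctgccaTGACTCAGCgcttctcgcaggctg
CBR1, chr21:36069850-36069888, plus strand: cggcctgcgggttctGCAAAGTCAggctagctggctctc
TXNRD1 and ME1 carry the core in the forward reading, and GCLM, PGD and CBR1 carry it on the opposite strand. All 5 genes were called higher in tBHQ, and their values follow by role.

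Heme oxygenase HMOX1, which breaks heme down to biliverdin, read 7.22, 7.10, 9.27, 7.19 and 7.15 in the H2O2 samples (replicates 1, 2, 3, 5 and 6) and 11.41 to 11.94 in tBHQ, with a median of 11.62. Every tBHQ sample was above every H2O2 sample, and 4 of 5 H2O2 samples lay inside the control range of 6.75 to 7.36 while replicate 3 lay well above it. The difference was 4.05 ± 0.34 toward tBHQ, a 16.6-fold difference (adjusted p = 1.1e-05), and 4.47 ± 0.09 without H2O2 replicate 3. Other genes of heme and iron handling were called the same way. Of 18 iron, heme and ferritin genes 6 (33.3%, against 4.65% of all genes) were called higher in tBHQ and 0 in H2O2. The median was -0.40. Besides HMOX1 they include biliverdin reductase B (BLVRB, 1.36 ± 0.09 toward tBHQ), the heme-binding protein HEBP1 (1.19 ± 0.11), the iron importer SLC11A2 (0.84 ± 0.09) and the heme synthesis enzyme ALAS1 (0.80 ± 0.16). The SLC11A2 difference was under 1.5-fold as a mean of its probe sets. HMOX1 and BLVRB are also on the NRF2 list. Ferritin light chain (FTL) was 0.57 ± 0.08 higher in tBHQ (adjusted p = 0.00044), with no overlap of samples, but its fold was under 1.5. It was 1.5-fold or more, and so called, without H2O2 replicates 3, 5 or 6 or tBHQ replicate 1 (0.59 to 0.61 toward tBHQ).

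Aldo-keto and carbonyl reductases, which reduce aldehydes, ketones and quinones, included the gene furthest toward tBHQ. Of 11 tested, 5 (45.5%, against 4.65% of all genes) were called higher in tBHQ, 0 in H2O2 and 6 in neither direction. The median was -0.26. The 5 called, AKR1C1, AKR1C2, AKR1C3, AKR1B10 and CBR1, are all on the NRF2 list as well. AKR1C1 read 5.60, 6.29, 7.30, 5.76 and 5.66 in H2O2 and 10.60 to 11.85 (median 11.43) in tBHQ. The difference was 5.28 ± 0.31, a 38.9-fold difference (adjusted p = 9.5e-07), and 5.58 ± 0.23 without H2O2 replicate 3, which was the highest H2O2 sample here too. AKR1C2 differed by 4.32 ± 0.33 and AKR1C3 by 2.45 ± 0.25 toward tBHQ. These genes are near-identical copies, so probe sets may share signal between them. Carbonyl reductase CBR1 was 0.84 ± 0.09 higher in tBHQ. AKR1B10, which also has a close copy, read above 5 of 6 controls in every treated sample. It read 6.16, 6.36, 6.09, 6.52 and 6.23 in H2O2, 6.69 to 7.69 (median 7.32) in tBHQ, and 4.34, 6.67, 4.40, 4.20, 3.68 and 4.02 in the controls. tBHQ was thus 0.97 ± 0.17 above H2O2 (adjusted p = 0.0016), while every H2O2 sample was above 5 of 6 controls and below DMSO_pooled replicate 2. Against the control H2O2 differed by 1.72 (adjusted p = 0.062 in limma), and by 2.14 ± 0.14 (adjusted p = 7.7e-05) without that control sample.

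Glutathione is built from cysteine, glutamate and glycine. Of the 23 tested genes of its synthesis and conjugation, 6 (26.1%) were called higher in tBHQ and 1 (4.35%) higher in H2O2. The shares of all genes were 4.65% and 5.07%. The other 16 were called in neither direction, and the median was -0.13. The cystine carrier SLC7A11 read 6.73, 7.13, 8.88, 7.03 and 7.23 in H2O2 and 10.85 to 11.27 (median 11.08) in tBHQ. The difference was 3.67 ± 0.31 (12.8-fold, adjusted p = 1.1e-05), and 4 of 5 H2O2 samples lay below the lowest control of 7.63 while replicate 3 lay above the highest, 8.70. Against the control H2O2 differed by -0.77 (adjusted p = 0.31 in limma), and by -1.14 (adjusted p = 0.042) without replicate 3. Its partner chain SLC3A2 was 1.94 ± 0.12 higher in tBHQ. The catalytic subunit of glutamate-cysteine ligase, GCLC, read 7.75, 7.74, 8.06, 7.79 and 7.52 in H2O2 and 9.59 to 10.26 (median 10.17) in tBHQ, a difference of 2.32 ± 0.13 (adjusted p = 8e-07). The modifier subunit GCLM read 9.87, 9.69, 9.99, 9.15 and 8.93 in H2O2 and 11.06 to 11.51 (median 11.22) in tBHQ, a difference of 1.74 ± 0.18. Neither subunit overlapped between the groups. Glutathione reductase GSR was 1.52 ± 0.08 higher in tBHQ. SLC7A11, GCLC, GCLM and GSR are also on the NRF2 list. The member called higher in H2O2 was glutathione peroxidase GPX1, which read 11.28, 11.45, 11.52, 11.65 and 11.64 in H2O2 and 10.76 to 10.96 in tBHQ, 0.66 ± 0.08 higher in H2O2 with no overlap (adjusted p = 0.00015).

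Thioredoxin reductases were called in both directions. Thioredoxin reductase 1 (TXNRD1), the cytosolic enzyme, read 11.16, 11.15, 11.42, 11.19 and 11.18 in H2O2 and 12.38 to 12.71 (median 12.51) in tBHQ, a difference of 1.31 ± 0.08 toward tBHQ (adjusted p = 1.5e-06). TXNRD3 differed the same way by 0.87 ± 0.12. The mitochondrial enzyme TXNRD2 went the other way, with 6.54, 6.12, 5.97, 6.32 and 6.30 in H2O2 and 4.75 to 5.43 in tBHQ, 1.19 ± 0.14 higher in H2O2 (adjusted p = 9.3e-05). Its controls ran like H2O2, with a mean of 6.35 against 6.25. Sulfiredoxin SRXN1, which repairs overoxidised peroxiredoxins, was 1.71 ± 0.10 higher in tBHQ, and the peroxiredoxin PRDX1 differed the same way by 0.27 ± 0.06, under 1.5-fold. TXNIP, which binds and inhibits thioredoxin and responds to glucose, read 8.96, 9.59, 10.74, 10.59 and 10.92 in H2O2 and 5.47 to 8.51 (median 7.28) in tBHQ. It was 2.89 ± 0.50 higher in H2O2 with no overlap (adjusted p = 0.0014), and its controls ran from 9.10 to 11.06. Catalase (CAT), the enzyme that removes H2O2, averaged 9.88 in both groups, with an interval of the difference of -0.28 to 0.27. Of 24 tested genes of this list, 5 (20.8%) were called higher in tBHQ and 2 (8.33%) higher in H2O2, against 4.65% and 5.07% of all genes. TXNRD1 and SRXN1 are also on the NRF2 list.

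NADPH is the electron source of both systems. Of 16 genes of its supply 3 (18.8%, against 4.65% of all genes) were called higher in tBHQ and 0 in H2O2. These were 6-phosphogluconate dehydrogenase PGD (1.41 ± 0.10 toward tBHQ), malic enzyme ME1 (1.11 ± 0.09) and isocitrate dehydrogenase IDH1 (0.89 ± 0.10). All 3 are on the NRF2 list as well, so this share is no separate result. As means of their probe sets PGD and IDH1 differed by less than 1.5-fold, at -0.48 and -0.45 (H2O2 minus tBHQ). The quinone reductase NQO1, a target of both NRF2 and the aryl hydrocarbon receptor (AHR), read 9.84, 9.96, 10.42, 9.97 and 9.78 in H2O2 and 10.86 to 11.22 (median 11.12) in tBHQ, a difference of 1.10 ± 0.12 toward tBHQ (adjusted p = 5e-05). It was the only gene called among 9 AHR targets (11.1%, against 4.65% of all genes higher in tBHQ). CYP1A1, the classical AHR target, had a mean under 4 in both groups, and TIPARP differed by 0.36 ± 0.11 toward H2O2, under 1.5-fold.

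**Figure D3:**
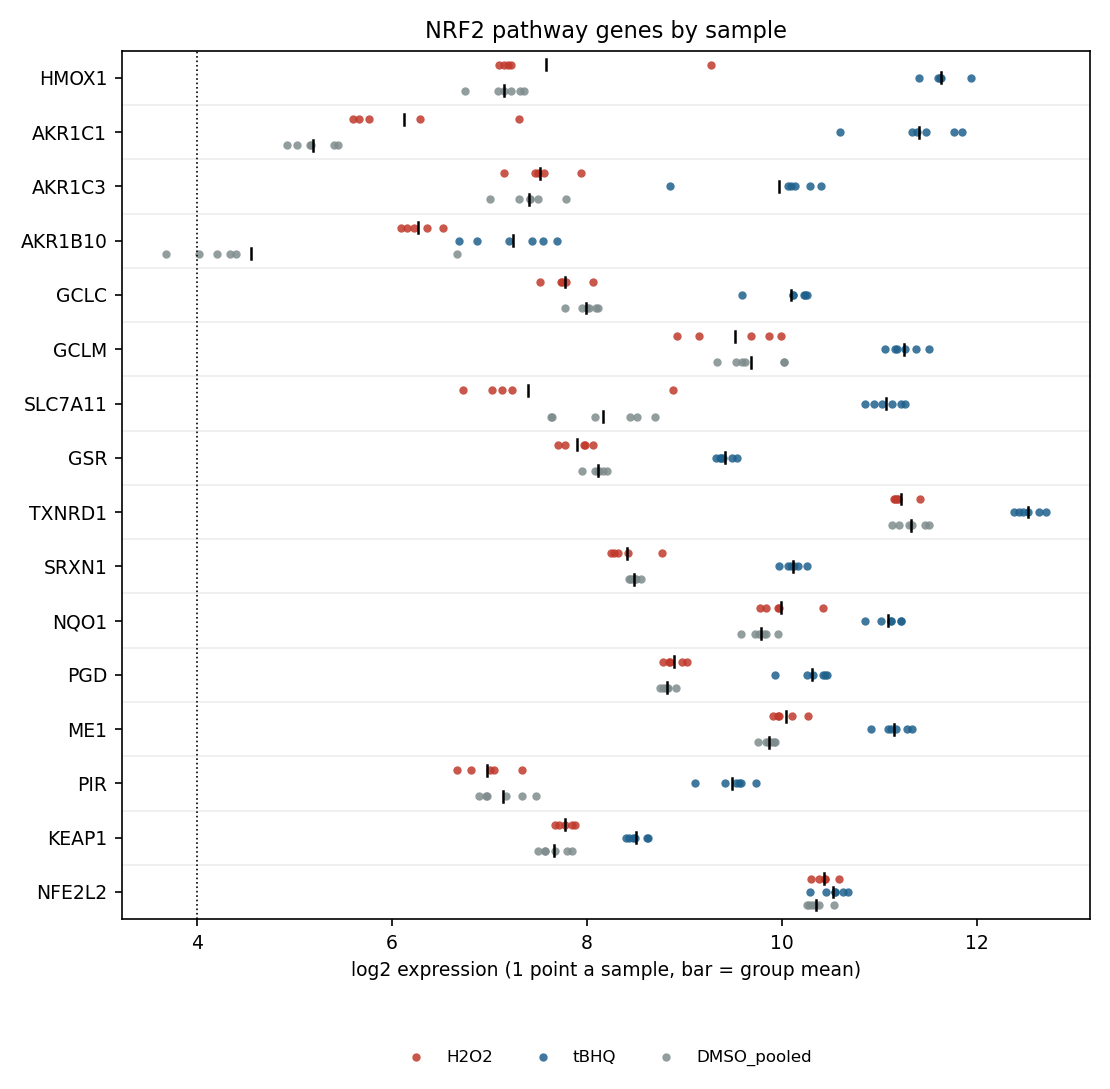
Log2 expression of NRF2 pathway genes in each H2O2 (red), tBHQ (blue) and DMSO_pooled (grey) sample, with group means as bars and the test level of 4 as a dotted line. tBHQ samples lie apart to the right in 15 of the 16 genes and overlap in NFE2L2. The lone H2O2 point at 9.27 in HMOX1 and at 8.88 in SLC7A11 is replicate 3, and the lone control point at 6.67 in AKR1B10 is replicate 2.

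p53 target genes were higher in H2O2. Of 53 listed genes 48 were tested, and 24 (50.0%, against 5.07% of all genes) were called higher in H2O2. Another 2 (4.17%, near the 4.65% of all genes) were called higher in tBHQ and 22 in neither direction. In 28 members every H2O2 sample was above every tBHQ sample (8.21% of all genes). The median difference was 0.62. List means ran from 8.58 to 8.88 in H2O2, 8.07 to 8.13 in tBHQ and 8.07 to 8.35 in the controls, so the 6 tBHQ samples lay within a narrow band at the lower end of the control range. Against the control H2O2 had 20 members called higher (0.775% of all genes were) and tBHQ had 3 called higher and 2 lower (5.39% and 4.44% of all genes). Without DMSO_pooled replicate 2 these counts were 21 for H2O2, and 4 and 1 for tBHQ. Without H2O2 replicate 3 the direct contrast had 25 members higher in H2O2, while 13 were called higher against the control.

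MDM2, the ligase that targets p53 for destruction, read 10.59, 10.63, 10.55, 10.58 and 10.48 in H2O2 and 9.43 to 9.70 (median 9.56) in tBHQ. The groups were far apart relative to their spread, with a difference of 1.00 ± 0.07, or 2.0-fold (adjusted p = 2.2e-06), and all 7 of its probe sets were called the same way. The phosphatase PPM1D, another brake on p53, was 1.44 ± 0.11 higher in H2O2. CDKN1A, the cell cycle inhibitor p21, read 8.91, 9.11, 9.44, 9.52 and 9.25 in H2O2, 8.40 to 8.71 (median 8.60) in tBHQ and 8.02 to 8.41 in the controls. All H2O2 samples were above all tBHQ samples, by 0.67 ± 0.11 (adjusted p = 0.0012). As a mean of its probe sets the difference was 0.40, under 1.5-fold. Against the control CDKN1A rose by 1.01 in H2O2, and in tBHQ it differed by 0.33 (adjusted p = 0.0087), also under 1.5-fold.

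Among p53 targets of death and metabolism, TP53INP1 read 8.67, 8.79, 9.20, 9.51 and 9.44 in H2O2 and 7.28 to 7.78 (median 7.52) in tBHQ, 1.59 ± 0.16 higher in H2O2 (adjusted p = 4.4e-05). The quinone oxidoreductase TP53I3 differed by 1.59 ± 0.20, the death receptor FAS by 1.18 ± 0.17 and PHLDA3, an inhibitor of AKT signalling, by 1.43 ± 0.15, all higher in H2O2 without overlap. The second probe set of PHLDA3 differed by 0.53. ACER2, a ceramidase, had 4.44, 4.57, 4.86, 5.11 and 5.36 in H2O2 and a mean of 3.04 in tBHQ, which is under 4, so it was at least 0.87 higher in H2O2. BBC3, the death gene PUMA, was 0.75 ± 0.21 higher in H2O2 (adjusted p = 0.022) with overlapping groups, and its call was lost without H2O2 replicate 5 (adjusted p = 0.057). The damage recognition factors of nucleotide excision repair DDB2 and XPC were 1.30 ± 0.16 and 0.98 ± 0.16 higher in H2O2. SESN1, a sestrin that restrains growth signalling, read 8.63, 8.62, 8.73, 8.95 and 8.82 in H2O2 and 7.49 to 7.84 in tBHQ, a difference of 1.14 ± 0.09 (adjusted p = 6.3e-06). Its paralog SESN2, a target of p53 and ATF4, was not called, with a difference of 0.22 and an interval of 0.02 to 0.43.

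GDF15, a secreted stress cytokine that p53 and ATF4 can both raise, was high in both groups. It read 11.45, 11.71, 12.27, 12.32 and 12.33 in H2O2, 11.68 to 12.57 (median 12.30) in tBHQ and 10.59 to 11.61 (median 11.40) in the controls. The treated groups overlapped, with a difference of -0.23 and an interval of -0.66 to 0.20. Against the control it rose by 0.94 ± 0.19 in tBHQ (adjusted p = 0.0019) and differed by 0.71 ± 0.21 in H2O2 (adjusted p = 0.12). These limma fits ignore the replicate number, and replicate 1 was the lowest sample in H2O2 (11.45) and in the controls (10.59). The missing call in H2O2 therefore does not set the 2 treatments apart. The 2 list members called higher in tBHQ, named here after their values were seen, were the growth factor KITLG, at 8.95 against 8.03 with a control mean of 7.21, and ABHD4. ABHD4 is also on the NRF2 list, had a mean of 3.53 in H2O2, and lost its call without H2O2 replicates 1 or 2 or tBHQ replicates 3, 5 or 6.

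**Figure D4:**
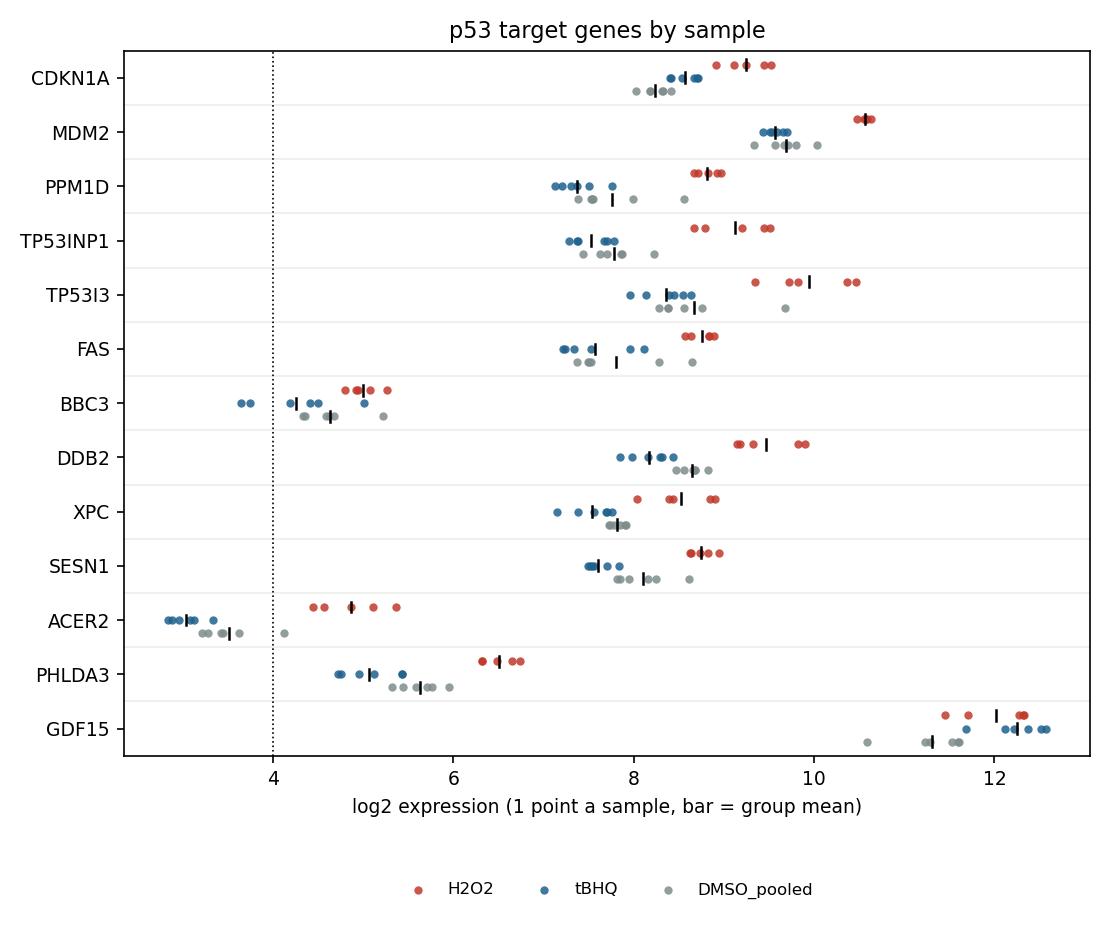
Log2 expression of p53 target genes in each H2O2 (red), tBHQ (blue) and DMSO_pooled (grey) sample, with group means as bars and the test level of 4 as a dotted line. H2O2 samples lie to the right of all tBHQ samples in MDM2, PPM1D, SESN1 and DDB2, overlap them in BBC3, and lie among them in GDF15.

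Genes of the integrated stress response, which ATF4 drives when amino acids run short or proteins misfold, were called more often toward tBHQ than toward H2O2. Of 32 tested, 16 (50.0%, against 4.65% of all genes) were called higher in tBHQ, 2 higher in H2O2 (5.07% of all genes) and 14 in neither direction, with a median of -0.65. Against the control the list median was -0.23 in H2O2, with 1 member called higher and 2 lower (0.775% and 0.165% of all genes). In tBHQ the median was 0.38, with 10 called higher and 0 lower (5.39% and 4.44% of all genes). Without H2O2 replicate 3, 0 were called higher and 3 lower than the control in H2O2. ATF4 itself read 9.97, 9.95, 10.73, 10.52 and 10.65 in H2O2 and 10.99 to 11.29 (median 11.18) in tBHQ, 0.80 ± 0.15 higher in tBHQ (adjusted p = 0.0021). Besides SLC7A11 and SLC3A2, the cysteine-making enzyme CTH was 1.95 ± 0.26 higher, the mitochondrial folate enzyme ALDH1L2 at least 1.72 and the amino acid carrier SLC7A5 1.53 ± 0.13. SLC7A5 was lower than control in H2O2, at -0.81 (adjusted p = 0.027), and higher than control in tBHQ, at 0.71 (adjusted p = 0.0043). The pseudokinase TRIB3 was 1.37 ± 0.20 and asparagine synthetase ASNS 1.22 ± 0.30 higher in tBHQ. Without DMSO_pooled replicate 2, limma called ASNS against the control in neither treatment (-0.69 in H2O2 and 0.53 in tBHQ). TRIB3 was then called in tBHQ only (1.26, and -0.11 in H2O2). ASNS overlapped, since H2O2 replicate 3 read 10.56 and the rest of its group 8.72 to 9.90. DDIT3, which encodes CHOP, differed by 1.23 ± 0.36 (adjusted p = 0.026) and lost its call without H2O2 replicates 1 or 2 or without tBHQ replicates 4, 5 or 6 (adjusted p from 0.050 to 0.067). The 2 genes higher in H2O2 were ATF3 (1.00 ± 0.25), a factor that p53 can also raise, and the secreted glycoprotein STC2 (0.90 ± 0.24), which was named after its values were seen. Both overlapped between the groups. ATF3 differed by 0.49 as a mean of its probe sets.

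The amino acid response element TGATGNAAN was searched in the same windows, since it is the letter pattern ATF4 dimers are known to read. It stood in 3 of the 26 ATF4 list promoters in the table (11.5%), in 1.45% of promoters of tested genes and in 3.18% of all promoters. The share was 1.38% of 436 promoters of genes called higher in tBHQ and 2.22% of 451 called higher in H2O2. The ASNS match is shown because ASNS is the textbook case, with the match in capitals.
ASNS, chr7:97872453-97872491, minus strand: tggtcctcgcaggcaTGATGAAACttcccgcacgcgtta
The other 2 matches were in ATF3, which was called higher in H2O2, and CHAC1, which was not called. CHAC1 had a mean under 4 in both groups.

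Of 19 aminoacyl-tRNA synthetases 2 (10.5%, against 4.65% of all genes) were called higher in tBHQ. AARS1 differed by 0.90 ± 0.12, and YARS1 by 0.60 ± 0.09, which fell under 1.5-fold when blocked by replicate number (-0.57) and without H2O2 replicate 2 or tBHQ replicates 1, 4 or 6 (-0.55 to -0.58). Of 23 endoplasmic reticulum chaperone genes 2 (8.7%, against 4.65% of all genes) were called, both higher in tBHQ. They were the splicing-activated factor XBP1 (0.83 ± 0.11) and the oxidoreductin ERO1B (0.66 ± 0.12), and both were under 1.5-fold as means of probe sets. The chaperone HSPA5 differed by -0.07 with an interval of -0.24 to 0.11. HSPA1L was the 1 gene called among 23 heat shock genes (4.35%, near the 4.65% of all genes). It was 1.24 ± 0.21 higher in tBHQ, and its second probe set read 0.20 the other way. HSPA1A, which has a near-identical copy, differed by -0.22 with an interval of -0.59 to 0.14. Of 7 metallothionein and zinc export genes 0 were called (9.72% of all genes were), and MT2A differed by 0.12 with an interval of -0.18 to 0.41. None of 33 proteasome genes and none of 23 cholesterol synthesis genes was called. In the proteasome list 27 genes were lower by mean in H2O2, and the median was -0.12, against -0.005 over all genes.

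Cell cycle genes were called between the treatments at about the share of all genes, with 4.35% of the G1/S list and 6.98% of the G2/M list higher in H2O2 against 5.07% of all genes. The list medians lay below the control in both treatments. Of 46 tested G1/S and replication genes 2 were called, both higher in H2O2, and the median was 0.07. The list medians against the control were -0.47 in H2O2 and -0.50 in tBHQ, with 4 and 17 members called lower (0.165% and 4.44% of all genes). The 4 calls in H2O2 fell to 1 without H2O2 replicate 3, and to 1 without DMSO_pooled replicate 2. The sliding clamp PCNA, also a p53 target, read 11.50, 11.53, 11.12, 11.38 and 11.23 in H2O2 and 10.12 to 10.76 (median 10.42) in tBHQ, 0.92 ± 0.13 higher in H2O2 without overlap (adjusted p = 0.00042). DNA ligase LIG1 differed by 0.80 ± 0.11. The helicase subunit MCM5 read 7.43, 6.88, 6.76, 6.67 and 6.84 in H2O2, 6.88 to 7.39 in tBHQ and 7.64 to 7.98 in the controls. Both treated groups lay below every control and overlapped each other, with a difference of -0.17 and an interval of -0.47 to 0.12.

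Of 43 G2/M genes 3 were called higher in H2O2 and 1 higher in tBHQ, with a median of -0.07. The sign of that median rested on single samples: without H2O2 replicate 3 it was 0.12, with 5 members called higher in H2O2 and 0 in tBHQ, and without tBHQ replicate 1 it was 0.04. The mitotic kinase CDK1 was 0.90 ± 0.19 and topoisomerase TOP2A 0.74 ± 0.18 higher in H2O2, both with overlap through H2O2 replicate 3, which read 9.85 and 10.17 against at least 10.33 and 11.04 in the rest of its group. The other 2, NUSAP1 (0.64 ± 0.20 toward H2O2) and CKS2 (0.63 ± 0.18 toward tBHQ), lost their calls without single samples of either group. NUSAP1 did so without H2O2 replicates 1, 2, 5 or 6 or tBHQ replicates 2, 3, 4 or 5, with adjusted p up to 0.091 (H2O2 replicate 2). CKS2 did so without H2O2 replicates 3, 5 or 6 or tBHQ replicate 1, with differences of -0.53 to -0.58, under 1.5-fold. The proliferation marker MKI67 read 8.76, 8.59, 6.89, 8.13 and 8.07 in H2O2 and 7.61 to 8.52 in tBHQ, with a difference of -0.08 and an interval of -0.72 to 0.56. Without H2O2 replicate 3 the difference was 0.22 ± 0.19 (adjusted p = 0.45). None of 25 homologous recombination and Fanconi genes was called, where 9.72% of all genes were.

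Histone genes were higher in H2O2 where they were called. Of 16 tested, 5 (31.2%, against 5.07% of all genes) were called higher in H2O2 and 0 in tBHQ, and the median was 0.13. Against the control the medians were 0.20 in H2O2, with 0 members called, and -0.34 in tBHQ, with 4 called lower (4.44% of all genes). H2BC21 read 6.12, 6.11, 6.57, 6.13 and 6.10 in H2O2 and 4.38 to 4.94 in tBHQ, a difference of 1.57 ± 0.13 (adjusted p = 9.5e-06). H2BC4 differed by 1.29 ± 0.17 and H2AC6 by 1.17 ± 0.16. H3C10 was at least 0.32 higher, a bound under 1.5-fold, and counts as called by its fitted difference. H2BC5 differed by 0.67 ± 0.17, or 0.57 without H2O2 replicate 3, under 1.5-fold. Histone genes are near-identical copies, so single members are uncertain.

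**Figure D5:**
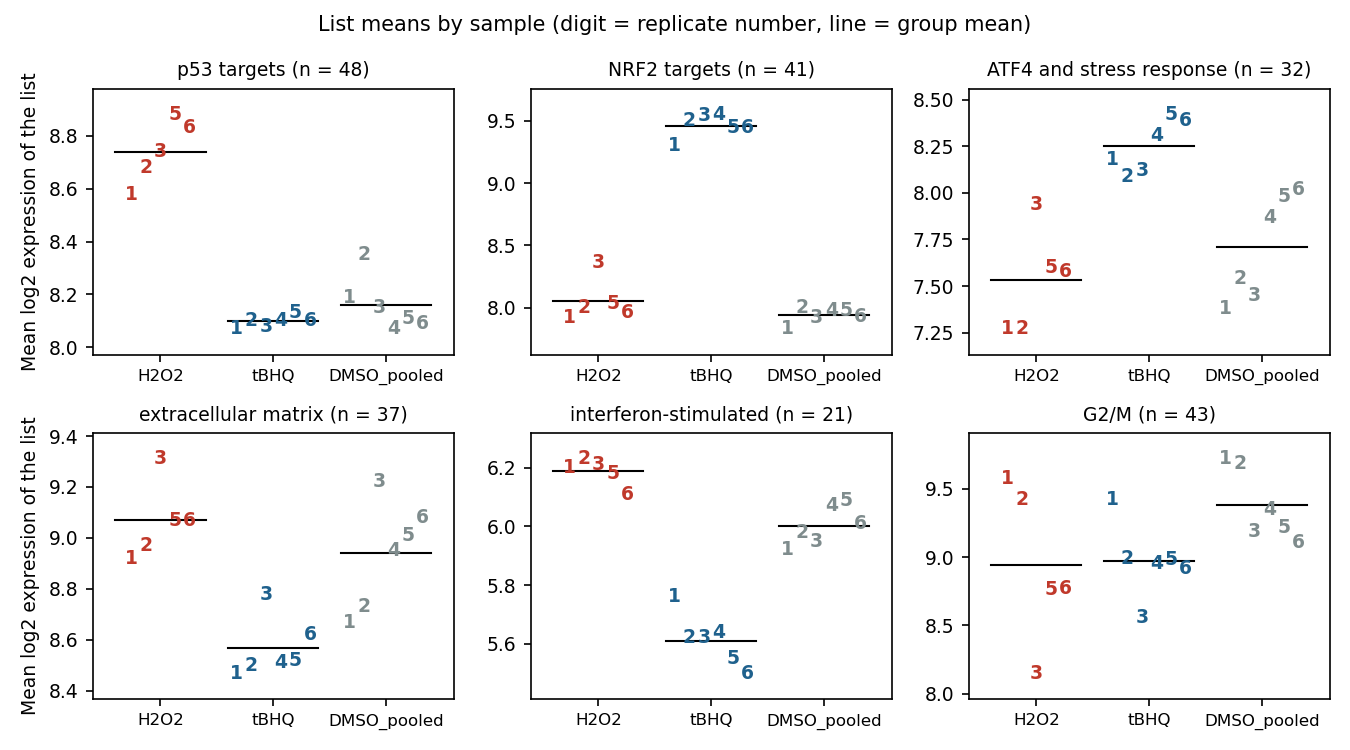
Mean log2 expression over the tested members of 6 gene lists in each sample, with the digit giving the replicate number and the line the group mean; each panel has its own y axis. H2O2 samples lie above all tBHQ samples for p53 targets, the extracellular matrix and interferon-stimulated genes, tBHQ samples above all H2O2 samples for NRF2 targets and ATF4 genes, and the groups overlap for G2/M genes.

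Interferon-stimulated genes were higher in H2O2 where called. Of 21 tested, 9 (42.9%, against 5.07% of all genes) were called higher in H2O2, 0 in tBHQ and 12 in neither direction, with a median of 0.53. Against the control the median was 0.14 in H2O2, with 1 member called higher, and -0.22 in tBHQ, with 8 called lower (4.44% of all genes were). The 1 call in H2O2 was lost without H2O2 replicate 3 and without DMSO_pooled replicate 2. OAS1, an antiviral RNA sensor, read 6.40, 6.78, 6.07, 6.74 and 6.78 in H2O2, 4.86 to 5.39 (median 5.07) in tBHQ and 6.36 to 7.07 in the controls. It was 1.46 ± 0.14 higher in H2O2 (adjusted p = 2.9e-05), and tBHQ lay below all samples of both other groups. IFIT1 was at least 1.28 higher in H2O2, IFIT3 1.21 ± 0.21 and the immunoproteasome subunit PSMB9 1.04 ± 0.14. SAMD9 (1.04 ± 0.29) lost its call without H2O2 replicate 2 (adjusted p = 0.051).

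Some inflammatory genes were higher in tBHQ. Of 20 tested NF-kB and inflammatory genes 4 were called higher in tBHQ and 0 in H2O2, against 4.65% and 5.07% of all genes. The counts were 7 and 0 when blocked by replicate number, and 7 and 0 without H2O2 replicate 3. The median was -0.29. Against the control 8 members were called higher in tBHQ and 0 lower (5.39% and 4.44% of all genes). Without DMSO_pooled replicate 2 these counts were 6 and 0. In H2O2 0 members were called against the control in either direction. The medians against the control were 0.3 in H2O2 and 0.5 in tBHQ. The chemokines CXCL3 and CXCL8 were 1.99 ± 0.28 and 1.28 ± 0.14 higher in tBHQ, without overlap. Interleukin IL1A differed by 1.62 ± 0.36, and its values moved with the replicate number, the lowest sample being replicate 1 in H2O2 (6.86), tBHQ (8.47) and controls (5.85). The mitochondrial superoxide dismutase SOD2, an NF-kB target, was 0.73 ± 0.17 higher in tBHQ. IL6 read 3.96, 4.19, 6.01, 5.38 and 5.26 in H2O2 and 5.29 to 7.14 in tBHQ. Its difference of -1.14 ± 0.40 missed the threshold (adjusted p = 0.052) and passed it with the block (-1.21, adjusted p = 0.0079), without H2O2 replicate 3 (-1.40, adjusted p = 0.021) and without tBHQ replicate 1 (-1.30, adjusted p = 0.031).

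Growth factor and immediate early genes were called both ways. Of 29 tested, 7 (24.1%) were higher in tBHQ and 5 (17.2%) higher in H2O2, against 4.65% and 5.07% of all genes. The transcription factor EGR1 read 4.42, 4.73, 6.37, 6.86 and 7.13 in H2O2, 7.35 to 8.65 (median 8.12) in tBHQ and 4.26 to 7.96 in the controls. The treated groups did not overlap (2.13 ± 0.49 toward tBHQ, adjusted p = 0.0069), and replicate 1 was the lowest sample in all 3 groups. DUSP5, a phosphatase of ERK, was 1.98 ± 0.21 higher in tBHQ. On the other side the matricellular gene CCN1 was 1.03 ± 0.14 and IER5 0.92 ± 0.07 higher in H2O2.

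Extracellular matrix genes were higher in H2O2 where called. Of 37 tested, 13 (35.1%, against 5.07% of all genes) were called higher in H2O2 and 0 in tBHQ, with a median of 0.38. Against the control the medians were 0.07 in H2O2, with 0 members called by limma, and -0.33 in tBHQ, with 13 called lower and 1 higher (4.44% and 5.39% of all genes). Thrombospondin THBS1 read 10.94, 10.83, 10.99, 10.68 and 10.75 in H2O2, 8.46 to 9.50 (median 8.85) in tBHQ and 10.51 to 11.19 in the controls. H2O2 and control samples lay together and tBHQ samples apart, and the difference of 1.98 ± 0.17 (adjusted p = 1.1e-05) was called in all 4 probe sets. TGFBI differed by 1.37 ± 0.15, the plasminogen activator PLAT by 1.29 ± 0.18 and the protease inhibitor TIMP3 by 1.12 ± 0.20, or 0.54 as a mean of probe sets. Collagen COL1A1 read 8.94, 7.27, 9.25, 7.86 and 8.34 in H2O2 and 4.72 to 7.22 (median 5.68) in tBHQ, 2.54 ± 0.45 higher in H2O2 (adjusted p = 0.0015). Its highest tBHQ sample lay just below its lowest H2O2 sample, and 1 of its 3 probe sets differed by only 0.11. The collagenase MMP1 differed by -0.10 with a wide interval of -1.04 to 0.85.

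Smaller lists gave single genes. Among 7 arrestin-domain and glucose-sensing genes, TXNIP and ARRDC4 (1.59 ± 0.27) were higher in H2O2 and ARRDC2 (0.76 ± 0.16) higher in tBHQ. These shares were 28.6% and 14.3%, against 5.07% and 4.65% of all genes. The glucose carrier SLC2A1 was the 1 gene called among 26 of hypoxia and glycolysis (3.85%, near the 5.07% of all genes). It read 8.82, 8.85, 8.83, 9.09 and 9.08 in H2O2 and 7.72 to 8.03 in tBHQ, 1.07 ± 0.08 higher in H2O2. Of 26 autophagy genes 3 (11.5%, against 4.65% of all genes) were called higher in tBHQ. The cargo receptor SQSTM1, an NRF2 target that also binds KEAP1, differed by 1.16 ± 0.18, with 3 of its 4 probe sets called and 1 at 0.01. GABARAPL1 (0.86 ± 0.26) lost its call without H2O2 replicates 1 or 2 or tBHQ replicates 3, 5 or 6, with adjusted p up to 0.068, and ULK2 differed by -0.32 as a mean of probe sets. None of 38 respiratory chain genes was called, where 9.72% of all genes were. By mean 35 were higher in H2O2, but the samples overlapped in 32, and the median was 0.13, against -0.005 over all genes.

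The largest differences outside the stress lists included genes of surface, secretion and differentiation. Toward tBHQ, the adhesion molecule NRCAM read 4.79, 5.20, 5.62, 5.46 and 4.91 in H2O2 and 7.61 to 8.62 (median 8.40) in tBHQ, a difference of 3.09 ± 0.20, or 8.49-fold (adjusted p = 1.8e-06). Osteopontin (SPP1), a secreted phosphoprotein, differed by 2.70 ± 0.29, and the mucin glycosyltransferase GCNT3 by at least 2.32. The microtubule protein MAP2 was at least 1.13 higher, and the pseudogene transcript CTSLP8, which resembles CTSL, 2.11 ± 0.15. The pirin gene PIR and the pseudogene NMRAL2P, both on the NRF2 list, differed by 2.51 ± 0.13 and 3.99 ± 0.34.

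Toward H2O2, FLG, a structural protein of skin, read 7.70, 7.89, 6.70, 6.92 and 6.55 in H2O2 and averaged 3.23 in tBHQ, so that it was at least 3.15 higher in H2O2, or at least 8.9-fold. Its controls ran from 6.35 to 7.29 and overlapped the H2O2 samples. KRTAP2-3, which has a near-identical neighbour, differed by 3.26 ± 0.39, the keratin KRT80 by 2.55 ± 0.27, the secreted protein CTHRC1 by 2.17 ± 0.21 and PLCXD2 by 2.13 ± 0.30. PLAC8 was at least 2.57, LBH at least 1.90 and the sialyltransferase ST6GAL2 at least 1.23 higher. In CTHRC1 the control mean of 8.43 lay near the 8.63 of H2O2 and far from the 6.47 of tBHQ, while in PLCXD2 the control mean of 5.31 was about midway between 6.33 and 4.19.

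CCDST, NECTIN4 and CCDC148 were called higher in H2O2 than in either other group. The long noncoding RNA CCDST read 6.54, 7.24, 7.44, 7.64 and 7.44 in H2O2, 4.22 to 5.38 (median 4.68) in tBHQ and 4.59 to 5.94 in the controls, and every H2O2 sample was the higher. It was 2.52 ± 0.22 above tBHQ (adjusted p = 1.5e-05) and 2.07 ± 0.26 above the control (adjusted p = 0.0029). The adhesion molecule NECTIN4 was 2.23 ± 0.25 above tBHQ and 1.65 ± 0.23 above the control, and CCDC148 was at least 1.25 above each. TREM2, a surface receptor best known from myeloid cells, read 3.43, 4.63, 4.82, 7.0 and 6.93 in H2O2 and averaged 3.14 in tBHQ, so it was at least 1.36 higher (adjusted p = 0.011). Replicates 5 and 6 were far above the rest of the group, and DMSO_pooled replicate 2 read 4.79 against 2.98 to 3.24 in the other controls. Against the control TREM2 was not called in H2O2 (adjusted p = 0.12 in limma).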

How the data were processed

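RNA of HT1080 cells was measured on Affymetrix HT HG-U133+ PM arrays. The values are log2 values deposited by the authors, and the submitters' processing notes name Partek and GCRMA without versions. GCRMA subtracts sequence-dependent background. The 5% quantiles of the arrays in the 3 groups lay between 2.38 and 2.42 and the medians between 3.27 and 3.33. Many probe sets thus read near the floor, where differences are limited by the signal, and the number of arrays limits the precision. Samples were grouped by their labels. Of 54715 probe sets, 102 array controls were left out, and 40914 of the rest carried 1 gene symbol in the platform annotation, 864 several and 12835 none. Each of 19747 genes was read from 1 probe set, the one brightest on average across the series, and the 11489 genes with a mean of at least 4 in 1 of 17 groups were tested.

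Groups were compared pairwise with limma 3.58.1 (lmFit and eBayes) in R 4.3.3, with Benjamini-Hochberg adjustment over all 11489 genes, after the fit was tested on simulated data. For H2O2 against tBHQ it recovered 89.6% of 67 genes simulated at a log2 difference of 1, 100% at 1.5 and 100% at 2, with 2 false calls. The simulated noise was independent between genes and samples, without the replicate-number effect of the data, so these rates may not hold for the data. Differences are given ± their standard error, and intervals are 95% intervals of single genes. Where a group mean is under 4, the difference is a bound taken from 4. Calls and their counts use the fitted difference, so they include genes whose bound is under 1.5-fold, such as H3C10. Replicate numbers paired the samples by the deposited values (r of deviations from the group means for H2O2 and tBHQ 0.746, 0.502, 0.425, 0.515 and 0.605 for numbers 1, 2, 3, 5 and 6). For number 5 the highest r with another number was higher, 0.554. All same-number values passed 0.1, and a fit with the number as a block was an alternative. Other alternatives were the filter on low values, the mean of probe sets or each probe set alone, the normalization, a fit of 7 groups, trend and robust eBayes, the fold minimum and leaving out each sample.

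Named genes were the 14 with the largest called difference in each direction without overlap, up to 5 called members of each list, and a fixed panel. The members, gene lists and panel were chosen with earlier results of these data known. Promoter sequences are from RefSeq (GRCh38.p14).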

Additional observations from a re-analysis of the deposited data

Results flagged for a closer look

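In 444 groups of values (list means and named genes in each of the 3 groups), 35 had a sample far from the others of its group. Chance flags about 1 in 20 groups where they are independent. These groups share arrays and genes, so that rate may not hold here. Most of the flagged samples were H2O2 replicate 3, replicate 1 of tBHQ and replicates 1 and 2 of DMSO_pooled.

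H2O2 replicate 3 was high in the list means of NRF2 targets (8.36, the others at most 8.03), glutathione genes (8.18 against at most 8.0) and iron and heme genes (8.81 against at most 8.64). Among single genes it was high in HMOX1 (9.27), SLC7A11 (8.88), TXNRD1 (11.42), TRIB3 (8.19), CTSLP8 (4.47) and H2BC21 (6.57), and low in TOP2A (10.17, the others at least 11.04). H2O2 replicate 6 was low in the NADPH supply mean (9.07 against at least 9.17). H2O2 replicate 5 was high in CCDC148 (6.18). H2O2 replicate 1 was high in MCM5 (7.43) and low in PLAT (10.87).

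tBHQ replicate 1 was low in the means of aldo-keto and carbonyl reductases (8.51 against at least 8.99) and the respiratory chain (10.47 against at least 10.55). It was also low in AKR1C3 (8.85), GCLC (9.59), SLC11A2 (7.71), PLAT (9.26), ARRDC2 (5.65) and FTL (13.22), and high in CDK1 (9.94) and CYP1A1 (4.34). tBHQ replicate 3 was high in CTHRC1 (7.45).

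DMSO_pooled replicate 1 was low in the aldo-keto and carbonyl reductase mean (7.29 against at least 7.57), SPP1 (5.36), PLAT (10.25) and GDF15 (10.59), and high in TIPARP (9.16). PLAT was thus lowest in replicate 1 of all 3 groups. DMSO_pooled replicate 2 was high in AKR1B10 (6.67, the others at most 4.40), TREM2 (4.79) and TP53I3 (9.68). DMSO_pooled replicate 3 was high in CTHRC1 (8.91), and replicate 6 was low in NMRAL2P (3.68).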

How the results depend on the processing

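The direct contrast kept its count within 1.5 times under every other filter, normalization and variance model tried, with 1046 to 1219 genes called when single samples were left out (555 to 627 higher in H2O2, 486 to 592 higher in tBHQ). With the replicate number as a block 1204 genes were called, of which 1081 were shared with the 1117 called without it. Each probe set alone gave 2048 calls (1010 and 1038), no fold minimum gave 3063 (1505 and 1558) and a 2-fold minimum 372 (219 and 153). The median of NRF2 targets was -0.82 as means of probe sets, which include dim ones, and that of interferon-stimulated genes was 0.43 with no filter. With the filter on the mean over the 3 groups, 27 of the NRF2 targets that passed were called higher in tBHQ, with a median of -1.11. None of the named genes called changed direction under the alternatives run on 1 value a gene, while the second probe set of HSPA1L read the other way. Of the 106 called, 18 lost their call under at least 1 alternative, 13 of them as a mean of probe sets, and 8 without a single sample. The block ended the call of YARS1 among named genes, gave one to IL6 and changed no other.

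The count for H2O2 against DMSO_pooled depended on the processing. It was 108 (89 higher, 19 lower), 68 (56 and 12) as means of probe sets, 177 (47 lower) in 1 fit of 7 groups, 224 (147 and 77) with the replicate block, and 35 to 167 (30 to 116 higher, 4 to 51 lower) when single samples were left out. The count was 69, 35 and 71 without H2O2 replicates 3, 5 and 6, and 41, 61 and 60 without DMSO_pooled replicates 4, 5 and 6. The cause was not tested. Differences of genes near the background level of 4 are limited by the signal.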
